A study of Homo sapiens with 2 samples.

Results

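The sites described here are the deletion sites of anti-SF3A1 crosslinking and immunoprecipitation that lay in the nuclear genome but outside protein-coding and small RNA genes. They were chosen by position alone: on chromosomes 1 to 22 and X, in no RefSeq gene body of a protein-coding gene, rRNA, snRNA, snoRNA or other small RNA. Sites in MALAT1, TALAM1, NEAT1, MIR99AHG, PVT1, OIP5-AS1, KCNQ1OT1 and DIO3OS were left out. The rule gave 274 of the 2960 listed sites, and they are called noncoding nuclear sites below. C4-2B, a prostate cancer epithelial line of the LNCaP lineage, was used in a derivative prepared for CRISPR interference, with no further treatment named. Cells were harvested 48 h after seeding and crosslinked with ultraviolet light at 254 nm (400 mJ/cm2), then immunoprecipitated with 2 µg of anti-SF3A1. The 2 libraries form 1 group and were pooled by the authors into 1 list, so no value carries an error between replicates, the depth of each library is unknown, and no condition was compared. No input or mock library entered the comparison.

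SF3A1 is a subunit of the U2 small nuclear ribonucleoprotein, which pairs with the branch point of an intron while it is being spliced. Long noncoding transcripts are spliced by the same machinery, and many start next to a protein-coding promoter and run away from it. RNA polymerase also transcribes past the annotated 3′ ends of genes before it terminates. During reverse transcription a crosslinked base can be skipped, and the missing base in the read can then point to where a protein touched the RNA. Each listed position comes with the number of tags over it and the number of those with the deletion, and the ratio is called the deleted share here.

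Sequence could be read at 5 of the 274 sites, those that fell in the RefSeq promoter windows (GRCh38.p14; 250 bases before to 50 after a gene start). They are printed on the strand of the site, 5′ to 3′, with the deleted base in capitals, because they show the bases that the list marks. The windows are chr7:40134691-40134731 (minus strand, 89 nt before the start of MPLKIP), chr4:158672274-158672306 (plus, 238 nt before C4orf46), chr9:38621047-38621087 (plus, 21 nt before the noncoding FAM201A), chr20:26209329-26209369 (minus, 116 nt before MIR663AHG) and chr5:6633251-6633291 (minus, 169 nt before SRD5A1).
MPLKIP site: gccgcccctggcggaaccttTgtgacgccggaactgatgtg
C4orf46 site: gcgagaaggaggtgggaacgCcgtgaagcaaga
FAM201A site: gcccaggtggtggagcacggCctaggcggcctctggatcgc
MIR663AHG site: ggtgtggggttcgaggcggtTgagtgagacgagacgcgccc
SRD5A1 site: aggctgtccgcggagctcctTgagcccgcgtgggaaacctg
The deleted base was T at 3 sites and C at 2. At all 5 it stood in a run of at least 2 equal bases, with 3 T at the MPLKIP site, and it was always the base of the run with the lowest genome coordinate. A deletion inside such a run cannot be placed on a particular base of it. Among 14 sites of protein-coding gene bodies that also fell in promoter windows, 8 stood in a run, again all 8 at its lowest coordinate, and 50.7% of all bases in the 35116 promoter windows stand in such runs. No window held any of 5 short motifs searched on the strand of the site, and 4 of the windows have the full 41 bases. In the middle 41 bases of all promoters, read on the strand of the gene, the branch point letters CTAAC occur in 1.38% and the variant CTGAC in 3.7%. A stretch of TTTTT occurs in 3.92%, the 5′ splice site letters GTAAG in 1.7% and the polyadenylation hexamer AATAAA in 1.24%. Deleted shares were 163 of 163 tags at the MPLKIP site, 77 of 78 at C4orf46, 61 of 61 at FAM201A and 41 of 41 at SRD5A1. At the MIR663AHG site only 48 of 106 tags carried the deletion (45.3%, 95% Clopper-Pearson interval 35.6 to 55.3).

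The largest class of the noncoding nuclear sites had no annotated gene. It held 169 of the 274 sites (61.7%, 95% Clopper-Pearson interval 55.6 to 67.5). Long noncoding genes held 89 sites (32.5%, 27.0 to 38.4) and pseudogenes 16 (5.84%, 3.37 to 9.31). The sites lay on both strands, 142 on plus and 132 on minus. A site was covered by a median of 58 tags (quartiles 30 to 103), against 52 (29 to 92) for the 2558 sites in protein-coding gene bodies. Tags over the noncoding nuclear sites summed to 22158, and 20745 of them carried the deletion. Of 13 marker genes of prostate luminal cells, 5 held a site of the full list: KLK3 held 4, and KLK2, TMPRSS2, FOLH1 and SLC45A3 held 1 each. None of 15 marker genes of basal or neuroendocrine, liver, blood or stromal cells did. The share of all 19821 protein-coding genes that held a site was not counted, so these marker counts have no base share beside them. A site is not a measure of expression, and the counts do not identify the cells.

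Most noncoding nuclear sites were deleted in every tag, as were sites in protein-coding genes. The deletion was complete at 208 of 274 sites (75.9%, 95% Clopper-Pearson interval 70.4 to 80.9), against 1981 of 2558 in protein-coding gene bodies (77.4%, 75.8 to 79.1). Over all 2923 nuclear sites the share was 76.5%. The difference of -1.53 percentage points did not pass the threshold (Fisher's exact test, two-sided, p = 0.595; 0.595 after Benjamini-Hochberg adjustment over the 4 Fisher tests). Its direction turned among sites with 30 to 100 tags, where it was 3.21 points (Fisher's exact test, p = 0.447). With the 8 left-out genes kept it was -5.89 points and passed the threshold (Fisher's exact test, p = 0.017). Complete deletion was found at 133 of 169 unannotated sites, 67 of 89 long noncoding sites and 8 of 16 pseudogene sites. These tests count sites of 1 pool and say nothing of variation between cultures. No genotype of the line and no input library was used here. Whether a deletion in every tag came from crosslinking, from the genome of the line or from mapping was not tested.

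**Figure D1:**
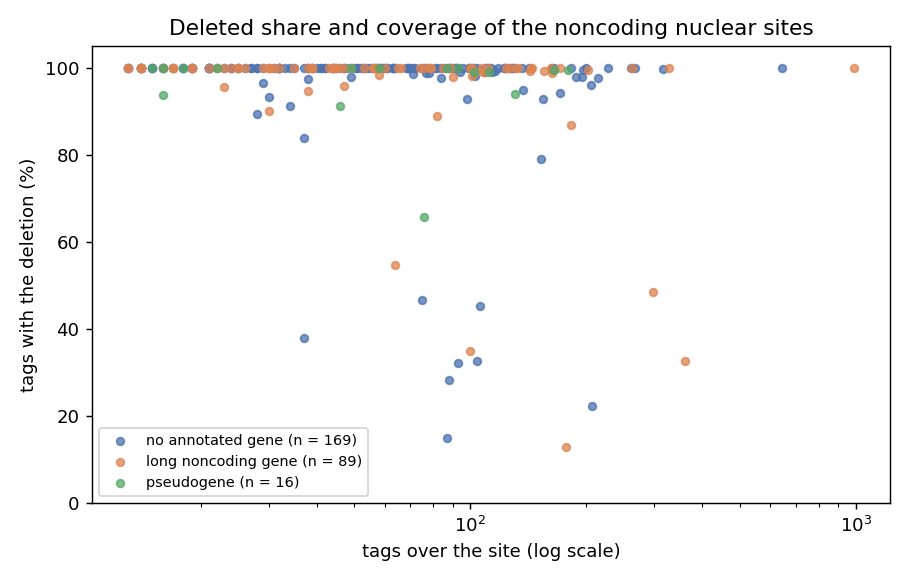
Percentage of tags with the deletion (vertical axis) against the number of tags over the site (horizontal axis, log scale) for the 274 noncoding nuclear sites, 1 point per site, coloured by class. Most points lie at or near 100% over the whole range of coverage, and 19 lie below 90%.

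A deleted share under 90% was found at 19 noncoding nuclear sites (6.93%), beside 6.77% of all nuclear sites and 145 of the 2558 protein-coding sites (5.67%). The difference from protein-coding sites did not pass the threshold (1.27 points, Fisher's exact test, two-sided, p = 0.413, adjusted p = 0.551). The lowest share was in COX10-DT, a transcript that runs divergently from the gene of a heme A synthesis enzyme: 23 of 177 tags at chromosome 17 position 14048478 (13.0%, 95% Clopper-Pearson interval 8.42 to 18.9). In other genes named as divergent transcripts, EOLA2-DT had 118 of 361 tags (32.7%, 27.9 to 37.8) and GATD1-DT had 35 of 100 (35.0%, 25.7 to 45.2). In all, 3 of 7 sites in genes named as divergent transcripts were under 90%, against 1 of 14 in antisense-named genes, 0 of 18 in LINC genes, 0 of 7 in microRNA hosts, 1 of 7 in snoRNA hosts, 2 of 33 in LOC genes and 0 of 3 in others. This grouping was made after the values had been seen and was not tested. The CLSPN-DT, GMDS-DT and ST3GAL1-DT sites and the second EOLA2-DT site, which had 19 of 19 tags, were complete or nearly so. The uncharacterized LOC124903933 had 144 of 297 tags (48.5%, 42.7 to 54.3), and SNHG29, a snoRNA host, had 35 of 64 (54.7%, 41.8 to 67.2).

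Among unannotated sites 11 of 169 were under 90%. The lowest was on chromosome 3 at 110126682, 787046 nt from the nearest protein-coding gene, with 13 of 87 tags (14.9%, 95% Clopper-Pearson interval 8.20 to 24.2). Next came a site 2396 nt before the 5′ end of CDC42EP4, an effector of the small GTPase CDC42, with 46 of 207 tags (22.2%, 16.8 to 28.5). A site on chromosome 12 at 60144406 had 25 of 88 (28.4%). Sites 1525 nt beyond FAM174B and 6472 nt beyond the aminopeptidase gene XPNPEP3 had 30 of 93 (32.3%) and 34 of 104 (32.7%). A site on chromosome 2 at 91672687 had 14 of 37 (37.8%), with an interval of 22.5 to 55.2. The list holds no site with fewer than 13 deleted tags, so a low share could be listed only where coverage was sufficient.

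**Figure D2:**
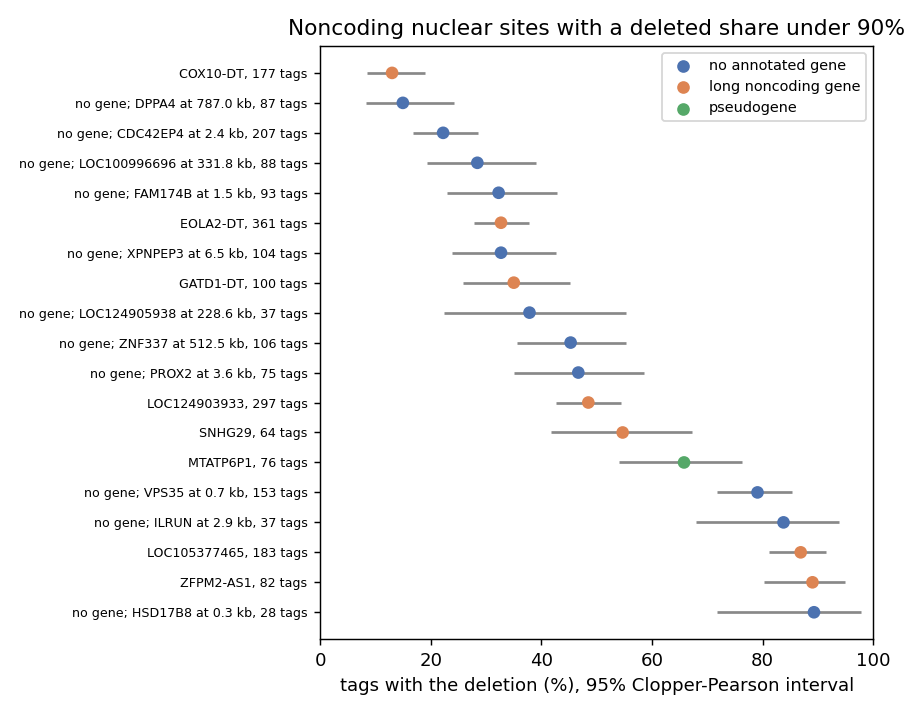
Deleted share with its exact 95% interval for the 19 noncoding nuclear sites under 90%, coloured by class, each labelled with its gene or the nearest protein-coding gene and its number of tags. COX10-DT is lowest at 13.0%, and 12 of the intervals, from COX10-DT to LOC124903933, end below 60%.

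Unannotated sites lay close to protein-coding genes more often than unannotated sequence does, and the strand depended on which end of the gene was near. Of the 169 sites, 70 (41.4%, 95% Clopper-Pearson interval 33.9 to 49.2) lay within 10 kb of a protein-coding gene body, where 13.9% of the 1292 Mb of unannotated sequence lies. This sequence is every base between annotated genes, also where no tag could be mapped, so 13.9% is not an expected share of sites. Within 5 kb the values were 50 sites (29.6%) and 8.16% of the sequence. The median distance was 15870 nt (quartiles 3645 and 118200). The strand of the nearest gene was known for 52 of the 70 sites. Of these, 36 lay beyond the gene's 3′ end and 16 before its 5′ end, although the unannotated sequence next to such genes is split almost evenly (5.47% of all unannotated bases beyond 3′ ends and 5.53% before 5′ ends). Beyond 3′ ends 28 of 36 sites were on the strand of the gene (77.8%, 60.8 to 89.9), and before 5′ ends 4 of 16 (25%, 7.27 to 52.4). This difference of 52.8 points passed the threshold (Fisher's exact test, two-sided, p = 0.000534, adjusted p = 0.00107); the test was chosen after the positions had been seen. Farther away, at 10 to 50 kb, sites on the gene's strand beyond the 3′ end were 10 of 34, and sites on the opposite strand there were 11 of 34; before 5′ ends 6 were on the gene's strand and 7 on the opposite strand. Over 50 kb from the nearest gene, 11 sites beyond 3′ ends were on its strand and 9 opposite, and before 5′ ends 8 were on its strand and 21 opposite, of 49 in all. These data hold no measure of transcription, so the level of RNA at any of these places was not tested.

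The 28 sites on the gene's strand beyond a 3′ end were 5 to 9913 nt away, with a median of 1533 nt, and 20 of them lay within 3 kb. The nearest was 5 nt beyond SEC31B, a gene of the COPII vesicle coat, with 19 of 19 tags deleted. The site 73 nt beyond DDIAS, an apoptosis suppressor, had 110 of 110 tags. A site 326 nt beyond HSD17B8, a hydroxysteroid dehydrogenase gene, had 25 of 28. The gene of ID2, an inhibitor of basic helix-loop-helix factors, had a site at 518 nt with 38 of 38. Beyond VPS35, a subunit of the retromer complex, a site at 653 nt had 121 of 153 tags (79.1%, 95% Clopper-Pearson interval 71.8 to 85.2). Others lay 972 nt beyond the phosphatase inhibitor gene ENSA, 1395 nt beyond the kinetochore gene SPC24, 1480 nt beyond the ribosomal protein gene RPL27A, 1541 nt beyond the deubiquitinase gene USP19 and 1574 nt beyond RXRA, a nuclear receptor. All of these were complete, with 70, 48, 59, 63 and 19 tags. The deletion was complete at 22 of the 28 sites and under 90% at 5. The genes next to these sites were named after their values were seen.

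The 12 sites before a 5′ end on the opposite strand lay on RNA that would run away from the gene. Their median distance was 640 nt, and 7 lay within 1 kb of the annotated gene. The site next to SRD5A1, which encodes a steroid 5-alpha-reductase that makes dihydrotestosterone, lay 169 nt away and is printed above. Others were 285 nt from NT5DC2 (130 of 137 tags), 519 nt from the proteasome receptor gene ADRM1 (29 of 29), 566 nt from the beta-tubulin gene TUBB4B (28 of 30) and 714 nt from KIAA2013 (198 of 206). Sites also lay 1546 nt from UXT, a prefoldin-like gene, with 81 of 81 tags and 2207 nt from SPC25, a kinetochore gene, with 110 of 110. The 4 sites on the gene's own strand before a 5′ end were next to MPLKIP, ZNF510, CRYBG1 and MCMBP, the last with 315 of 316 tags at 4866 nt. A further site, 2 nt from ETFDH with 77 of 78 tags, lies next to a gene without a known strand here; it is the one in the C4orf46 window. It stands among 18 sites within 10 kb of genes of unknown strand.

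**Figure D3:**
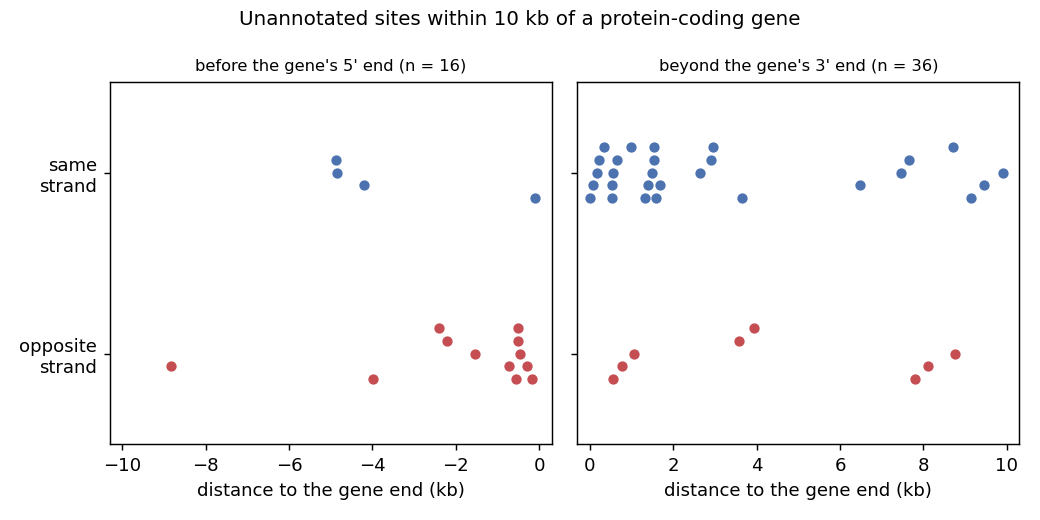
Distance in kb from each of 52 unannotated sites to the nearest protein-coding gene end, on the left for the 16 sites before a 5′ end and on the right for the 36 beyond a 3′ end, with sites on the gene's strand in the upper row (blue) and on the opposite strand in the lower row (red). Vertical spread within a row is only to separate points. On the right 28 sites are in the upper row, and on the left 12 are in the lower row.

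Sites in long noncoding genes lay on the gene's strand less often than sites in protein-coding genes. Gene strand, taken from the promoter table, was known and unambiguous for 54 of the 89 sites, and 43 of these were on it (79.6%, 95% Clopper-Pearson interval 66.5 to 89.4). For 1944 sites covered by 1 gene only, a protein-coding one, the share was 96.6% (95.7 to 97.4). Long noncoding sites were not limited in this way and were kept where all genes over them shared a strand. The difference of -17.0 points passed the threshold (Fisher's exact test, two-sided, p = 3.41e-06, adjusted p = 1.36e-05), and was -11.5 points without genes whose symbol starts with LOC (Fisher's exact test, p = 0.00314). This comparison was also chosen after the data had been seen. Genes named as divergent transcripts had 6 of 6 sites on their strand and other named genes 21 of 22. LOC genes had 12 of 18, and antisense-named genes 4 of 8. Among the 6 sites with known gene strand and a deleted share under 90%, all were on the gene's strand, and the direction turned (7.48 points above protein-coding sites under 90%, Fisher's exact test, p = 1.0).

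**Figure D4:**
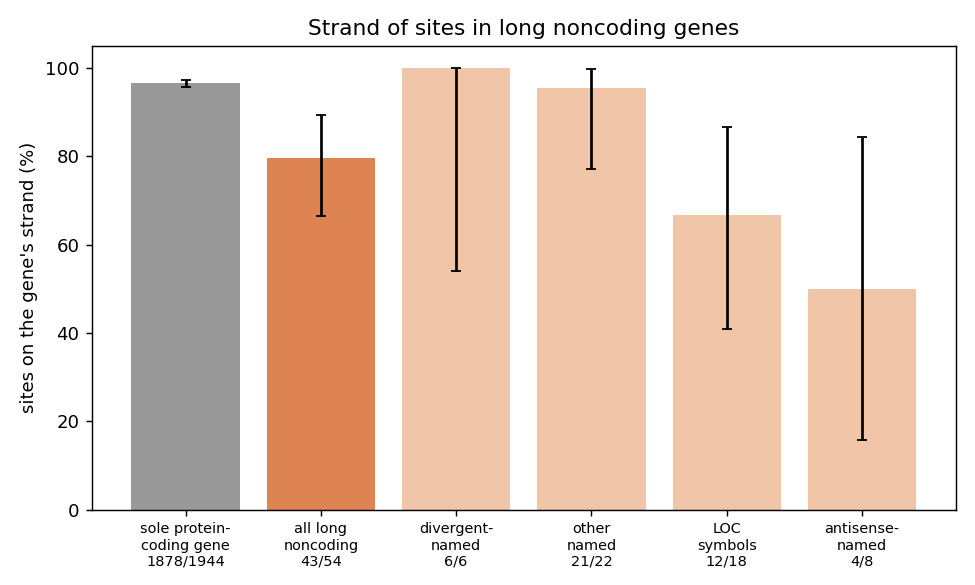
Percentage of sites on the strand of their gene, with exact 95% intervals and counts under each bar, for sites in a sole protein-coding gene (grey), all long noncoding sites with known gene strand (orange) and 4 groups of these by gene name (light orange). The bar for all long noncoding sites stands at 79.6% and that for protein-coding sites at 96.6%.

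The 11 sites on the opposite strand included the noncoding nuclear site with the most deleted tags. It lay on the plus strand at chromosome 11 position 35017104, in the body of the minus-strand LOC105376626 (35007703 to 35067191), with 989 of 990 tags. The nearest protein-coding gene, PDHX, a component of the pyruvate dehydrogenase complex, is on the plus strand and ends 20976 nt before it. For 8 of the 11 sites the nearest protein-coding gene was on the strand of the site, and 3 of the 11 lay within 10 kb of such a gene. In antisense-named genes this follows from the choice of sites against the noncoding strand, and the count was not tested. The ZNF652-AS1 site (263 of 263 tags) lay 15291 nt before the start of ZNF652, a zinc finger gene. The LIFR-AS1 site (145 of 145) lay 46859 nt before LIFR, the leukemia inhibitory factor receptor. The LOC105369225 site (144 of 144) lay 46636 nt before PLEKHM1, an autophagy adaptor. Each was on the strand of the protein-coding gene and against that of the noncoding transcript. The THBS3-AS1 site, with 13 of 13 tags, lay 62 nt beyond the 3′ end of THBS3 on its strand, and the ARRDC1-AS1 site 1312 nt beyond ARRDC1 on its strand.

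Outside the 8 genes that the rule leaves out, few long noncoding genes held more than 1 site. The sites touched 88 of 17897 long noncoding genes (0.492%), of which 80 held 1 site, 7 held 2 and 1 held 3. LINC01876, on chromosome 2 (156020535 to 156254931), held 3 sites on the minus strand with 17, 14 and 26 tags, all complete. LINC02055 held 2, with 165 of 166 tags deleted in sum, and CFAP418-AS1 2, with 123 of 123. MIR570HG had 2 sites with 124 of 124 tags, and MIR924HG on chromosome 18 (39206924 to 39751995) 2 with 115 of 115. The 2 sites of LINC02718 on chromosome 11 also lay in LOC124902646, so these counts are of the same sites. Among genes with 1 site the highest deleted counts after LOC105376626 were 328 of 328 tags in LOC107986606 and the 263 in ZNF652-AS1. A site on chromosome 10 at 3488584 (201 of 202 tags) lay in 4 overlapping noncoding genes on both strands, LINC02669 among them, and cannot be given to any of them.

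The unannotated sites with the most deleted tags were far from protein-coding genes as well as near them. On chromosome 13 at 37346877 all 642 tags carried the deletion, 215708 nt beyond POSTN, the periostin gene, on its strand. On chromosome 18 at 40506337 all 268 did, 1448897 nt from PIK3C3, the greatest distance of any unannotated site. All 261 tags on chromosome 3 at 148180257 and all 227 on chromosome 6 at 27919659 also did. A site on chromosome 20 at 49294565 had 210 of 215 tags and lay 10775 nt from the ZFAS1 site on the same strand.

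Noncoding transcripts that carry snoRNAs in their introns held sites in 7 of the 33 listed genes found in the gene table, beside 0.492% of all long noncoding genes. This list was written with earlier results of these data known. Expression of the listed and of the other genes was not measured, and the difference was not tested. SNHG10 had 133 of 133 tags, DANCR 131 of 131, SNHG12 107 of 108, SNHG30 99 of 101, ZFAS1 142 of 143, SNHG1 43 of 43 and SNHG29 35 of 64. The distance to the nearest snoRNA ran from 9 to 3018 nt, and the SNHG10 body holds no annotated snoRNA. The SNHG1 body holds 9 snoRNAs and that of SNHG12 holds 4, so many positions there are near one. Whether the sites lay closer than other positions of the hosts was not tested. The SNHG1 site was 9 nt from SNORD30 and 30 nt from a listed site inside that snoRNA, which had 60 of 276 tags. The SNHG29 site was 53 nt from SNORD49B, the SNHG12 site 187 nt from SNORA44 and the SNHG30 site 237 nt from SNORD7. The DANCR site was 1327 nt from SNORA26 and the ZFAS1 site 3018 nt from SNORD12. GAS5, SNHG5 and SNHG6 held only sites that the rule leaves out.

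Of 31 regulatory noncoding genes, 3 held a site, beside 0.492% of all long noncoding genes: CRNDE, LINC-PINT and MIR17HG. This list was also written with earlier results of these data known, and the difference was not tested. CRNDE, a transcript next to IRX5 named for colorectal neoplasia, had 76 of 76 tags at 99.7% of its length from the 5′ end. LINC-PINT, a p53-induced transcript, had 171 of 171. None of 16 prostate cancer noncoding genes, among them PCA3, PCAT14, SCHLAP1 and DRAIC, held a site of any kind. With a noncoding nuclear site in only 0.492% of all long noncoding genes, a list this short would seldom hold one. The list names only positions past the authors' threshold, so this says nothing of binding or expression there.

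Several sites lay beside microRNA genes without falling in them, and the mature microRNAs are printed from RefSeq (GRCh38.p14), with the seed (bases 2 to 8) in capitals, to show which families these hosts carry. The MIR17HG site (56 of 56 tags) lay at chromosome 13 position 91354045, 2654 nt downstream of the last hairpin of the cluster, that of miR-92a-1. The MIR200CHG site (32 of 32) lay 216 nt downstream of the hairpin of miR-141, a microRNA of the epithelial miR-200 family, at 96.7% of the host's 1203 nt. The site in LOC105375199 (89 of 89) lay 122 nt upstream of the hairpin of miR-148a on the same strand. The WASH7P site (15 of 15), in a pseudogene, lay 48 nt upstream of the hairpin of miR-6859-1 on the same strand, the closest of these sites to a hairpin. The THBS3-AS1 site lay 254 nt from the hairpin of miR-92b but on the other strand.
hsa-miR-17-5p: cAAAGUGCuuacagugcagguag
hsa-miR-20a-5p: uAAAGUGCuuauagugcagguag
hsa-miR-19a-3p: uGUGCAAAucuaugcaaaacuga
hsa-miR-19b-3p: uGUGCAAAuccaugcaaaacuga
hsa-miR-92a-3p: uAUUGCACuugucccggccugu
hsa-miR-92b-3p: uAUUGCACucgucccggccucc
hsa-miR-200c-3p: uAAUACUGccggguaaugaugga
hsa-miR-141-3p: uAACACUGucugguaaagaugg
hsa-miR-148a-3p: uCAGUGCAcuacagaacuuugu
The seed AAAGUGC is shared by miR-17 and miR-20a, GUGCAAA by miR-19a and miR-19b, and AUUGCAC by miR-92a of the MIR17HG cluster and miR-92b of the chromosome 1 locus. The miR-200c and miR-141 seeds AAUACUG and AACACUG are not the same. None of the sites lay in a mature or hairpin sequence, which the rule leaves out.

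Pseudogenes held 16 sites counted to that class. With overlaps, 19 of 16474 pseudogenes (0.115%) held a site. The most deleted tags were at STIP1P3, a copy of a chaperone adaptor gene, with 178 of 179. DTX2P1 and the readthrough gene DTX2P1-UPK3BP1-PMS2P11 shared a site with 164 of 165, and EP400P1 had 123 of 131. USP32P3 had 111 of 112, ZNF767P 101 of 102, GOLGA2P5 93 of 93, PPIEL 87 of 87 and TBC1D3JP 58 of 58. GUSBP1 had 49 of 49, and the SMBD1P site (79 of 79) also lay in MIR570HG. Tags of a pseudogene can come from its near-identical parent, so the copy is uncertain: EIF4B held 3 listed sites and EIF4BP3 1, and EP400, STIP1 and PKD1 each held 1. RPL7L1, GOLGA2, USP32, GUSB and DTX2 held 0. At MTATP6P1, a nuclear copy of the mitochondrial ATP6 gene on chromosome 1 (633696 to 634376), 50 of 76 tags carried the deletion (65.8%, 95% Clopper-Pearson interval 54.0 to 76.3). The 30 sites of the mitochondrial genome had a median share of 70.6% and a range of 0.927% to 100%. The MTATP6P1 site was the only pseudogene site under 90%.

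Noncoding nuclear sites had few close neighbours once the 8 named genes were left out. With those genes kept the sites number 341 in place of 274, and 47 pairs lay within 10 kb. Of 229 pairs of neighbouring sites on the same chromosome and strand, 0 lay within 1 kb, 3 within 10 kb and 14 within 100 kb. The closest pair was on chromosome 15 at 92601580 and 92602918, 1338 nt apart with 14 of 14 and 17 of 17 tags, and the partly deleted site beyond FAM174B lay 13005 nt farther on. The next pairs were on chromosome 17 (2498 nt, 31 and 15 tags) and chromosome 2 (6518 nt, 163 of 164 and 69 of 69 tags). The ZFAS1 pair and the MIR570HG pair, 11339 nt apart, came after them. Linking neighbours on a strand up to 500 kb apart, a distance chosen after the positions had been seen, gave 3 groups of at least 3 sites. These were the chromosome 15 sites, the LINC01876 sites and 5 plus-strand sites over 805 kb of chromosome 11, from 22930338 to 23735371. The last group ran from LINC02718, with 23 of 23 and 39 of 39 tags, over unannotated sites with 82 of 82 and 68 of 68, to LINC02726, with 154 of 155. The full list held no other site in that span, on either strand.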

How the data were processed

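The authors deposited 1 list, described by its name as pooled, unique tags, deletions by crosslink-induced mutation site (CIMS) analysis, FDR 10 percent. Its values are raw counts of deleted tags, used as deposited. The count of tags over the site was taken from the position's name. Build hg38 and the tools UMI-tools, SAMtools, cutadapt and BWA 0.7.17 are listed in the submitters' processing notes, without roles or settings. Positions are 1-based. Gene bodies came from the RefSeq table of GRCh38.p14, which shares primary coordinates with hg38 (58419 genes used; rows of other scaffolds left out), and gene strand from RefSeq promoter windows (11383 of 17904 long noncoding and 15812 of 19821 protein-coding genes). Sites were classed small RNA, protein-coding, long noncoding, pseudogene, then unannotated. Intervals are exact Clopper-Pearson 95% intervals and cover counting error only, taking tags as independent. The 4 Fisher tests count sites of 1 pool, with a threshold of 0.05. Sites and gene lists were chosen with earlier results of these data known. Described by rule were the 12 noncoding genes with most sites, the 10 sites with most deleted tags, the 10 with the lowest shares, up to 12 pseudogenes, the 6 closest pairs and listed genes with a site; some are given only by count. 1 marker gene of the luminal list is not reported here. Functions were tested on simulated data with planted sites. Computation used scipy 1.17.1, pandas 2.3.3 and numpy 2.4.6 under Python 3.11.15.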

Additional observations from a re-analysis of the deposited data

How the results depend on the processing

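Of 57 values recomputed under an alternative, 39 were classed as unchanged. They kept their direction and their side of the threshold or stayed within their interval. Counts with neither a test nor an interval were classed as unchanged when they stayed within a set ratio of the main value. With the 8 left-out genes kept, 49.6% of sites were unannotated, 47 pairs lay within 10 kb, and the difference from protein-coding genes in complete deletion was -5.89 points, which passed the threshold (Fisher's exact test, p = 0.017). Without LOC genes 73.0% were unannotated. Among the 19 sites deleted in under 0.9 of tags, median coverage was 93 tags, 63.6% of 11 unannotated sites lay within 10 kb of a gene, 100% of 6 stranded sites were on the gene's strand (7.48 points above protein-coding sites, Fisher's exact test, p = 1.0), the contrast of gene ends was 83.3 points (Fisher's exact test, p = 0.286), and 0 pairs, 1 listed gene and 1 readable sequence were left; few sites remain there by construction. Above the list's median of 50 deleted tags, coverage was 100 tags, with 1 pair and 3 sequences. Between 30 and 100 tags the difference in complete deletion was 3.21 points (Fisher's exact test, p = 0.447; the cause was not tested). Within 5 kb and 50 kb of a gene lay 29.6% and 66.3% of unannotated sites. No paired analysis was possible because the libraries were pooled, and for the same reason none could be left out.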

Other observations

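Over all chromosomes there were 274 noncoding nuclear sites beside 2558 sites in protein-coding genes. Chromosome 21 held 1 beside 35, chromosome 15 held 4 beside 102 and chromosome 19 held 6 beside 135. No difference between chromosomes was tested. Chromosome X held 14 beside 64 and chromosome 22 held 10 beside 70. Copy number of the line and the amount of noncoding sequence per chromosome were not measured here.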
